A study of Mus musculus with 6 samples.

Results

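The 36 genes described here encode the enzymes of glycolysis, the transporters of glucose and lactate, and members of the cell's response to low oxygen. They were listed by gene name and role, with no threshold on their values but with earlier results of these data known, out of the 49671 genes of the count tables. All 36 were found by symbol and all 36 passed the filter on low counts. Their RNA was measured in cells of pancreatic tumours grown in C57BL/6J mice carrying Rosa-mTmG and Fabp4-Cre. The reporter gives red cells (Tomato) that turn green (GFP) for good once Cre has acted. Cre was driven by the promoter of Fabp4, a gene also used in adipocytes, capillary endothelium and macrophages. FC1199, a mouse pancreatic cancer line, was injected into the pancreas at 8 weeks of age, and the tumours grew for 4 weeks without treatment, so that all hosts were 12 weeks old. Podoplanin-positive cells were then sorted by colour, and the 2 fractions carry the same alleles and differ in whether Cre had acted. Per the labels, GFP+ cells are cancer-associated fibroblasts (CAFs) from stellate cells, the fat-storing fibroblasts of the pancreas, and Tomato+ cells are CAFs of non-stellate origin. Each fraction has 3 libraries, and whether these are separate animals is not in the labels. The p-values thus measure the spread between these libraries, which may be technical.

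Glycolysis breaks glucose down to pyruvate. Lactate dehydrogenase turns pyruvate into lactate, and monocarboxylate transporters carry lactate across the membrane. Most steps are served by several genes whose proteins differ in tissue distribution and regulation, here called isoforms of a family. When oxygen is low, prolyl hydroxylases (the Egln genes) stop marking the HIF alpha subunits for destruction, and HIF raises transcription of many glycolytic genes and of other targets. Tumour fibroblasts are known for high glycolysis, and the protein, not the RNA, of HIF1A is the main point of control.

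Total counts per library ran from 33378377 to 42154933. Values are CPM (read counts relative to the library's total, scaled between libraries by the TMM method), per library or as mean ± SD over 3 libraries, and log2 fold changes are GFP over Tomato. Genes were called by edgeR's quasi-likelihood test at a Benjamini-Hochberg adjusted p under 0.05 over 15608 genes. Summed CPM of 8 fibroblast genes ran from 128012 to 142849 in GFP and from 62051 to 94954 in Tomato, with 6 of the 8 higher in GFP. Both fractions thus carried the marker RNA of fibroblasts. The collagen genes Col1a1, Col1a2 and Col3a1 make up most of that sum (Col3a1 alone 71047, 64470 and 67211 CPM in GFP and 51282, 41438 and 32505 CPM in Tomato). Dcn (log2 fold change -0.10, adjusted p = 0.695) and Lum (0.30, adjusted p = 0.197) were not called. Podoplanin is also carried by mesothelium and lymphatic endothelium. The lists of other cell types differed between the fractions, with lower values in GFP for mesothelial genes (8 of 8 lower, summed CPM 36.3 to 83.2 against 1048 to 1438) and for epithelial and cancer cell genes (6 of 6 lower, 58.3 to 78.5 against 527 to 631). The keratins of that last list are shared with mesothelium and make up most of its sum (Krt8 alone 160, 173 and 181 CPM in Tomato). Its other genes had less, Epcam 11.1, 10.6 and 15.3 CPM and Cdh1 7.79, 9.99 and 17.9 CPM in Tomato. Macrophage genes (9 of 9 lower, 60.7 to 88.1 against 340 to 791) and neutrophil genes (4 of 5 lower, 1.64 to 3.24 against 20.9 to 30.4) were also lower. Lymphatic endothelial genes (5 of 6 higher, 309 to 493 against 22.2 to 77.6) and blood and pan-endothelial genes (5 of 8 higher, 120 to 188 against 61.6 to 86.8) were higher. Of that last list Tek (log2 fold change 0.80), Vwf (0.05) and Kdr (-0.39) were not called. Of the defining markers only Ccl21a was listed at 0 in all 6 libraries. Of 4 pericyte genes 1 was higher and 1 lower, and none of 4 acinar genes was called (summed CPM 78.3 to 275 against 247 to 507). A block on the replicate number called all 4 acinar genes and 7 of 8 mesothelial genes lower in GFP. It called 2 pericyte genes and 6 of 8 blood and pan-endothelial genes higher. Of all genes tested, 20.9% were lower and 20.1% higher with that block. Most of these lists thus differed between the 2 fractions, and their part in the differences given below was not tested. Fewer cells of a type and less RNA per cell cannot be told apart in such bulk samples.

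**Figure D1:**
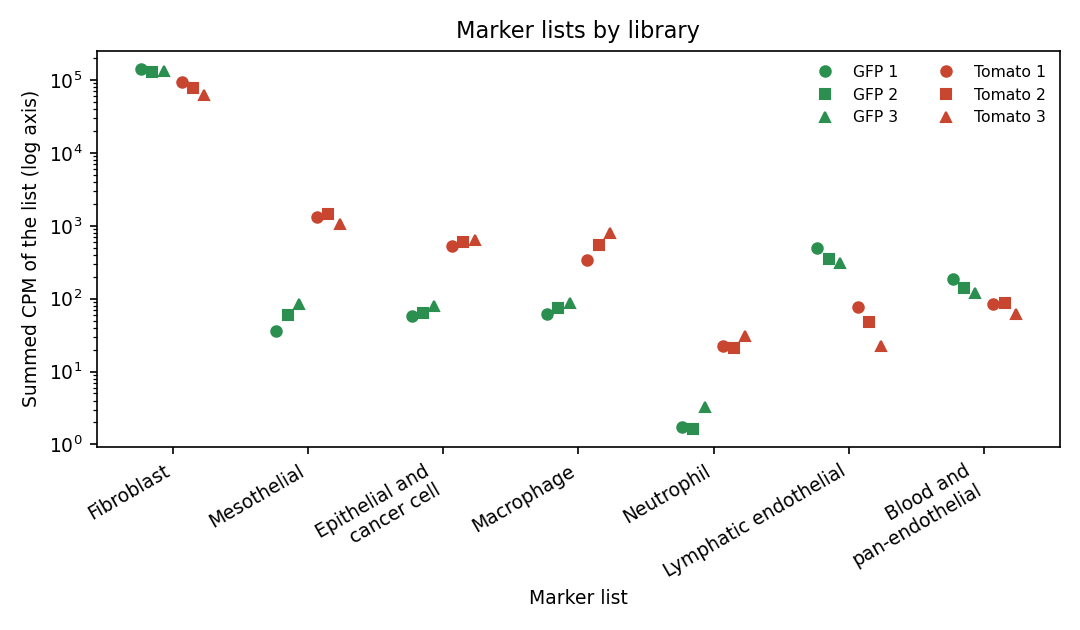
Summed CPM (log axis) of 7 marker lists in each of the 6 libraries, GFP in green and Tomato in red, with circles, squares and triangles for replicates 1, 2 and 3. Mesothelial, epithelial, macrophage and neutrophil lists lie lower in all GFP libraries, endothelial lists lie higher, and Tomato replicate 3 has the highest macrophage sum (791) and the lowest fibroblast sum (62051).

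Most of the 36 genes leaned toward Tomato. Of them 15 were lower in GFP (41.7%, where 15.7% of all genes tested were lower) and 4 were higher (11.1%, against 13.1% of all genes). Either call was reached by 28.9% of all genes. The 15 were led by the aldolase gene Aldoc, the carbonic anhydrase genes Car9 and Car12 and the prolyl hydroxylase gene Egln3, and the 4 were Hk2, Eno2, Hif1a and Epas1. The median log2 fold change of the 36 was -0.55, beside 0.00 for all genes tested. The 3 libraries of 1 fraction lay wholly above the 3 of the other for 25 of the 36 genes (69.4%), and for 48.6% of all genes tested. Tomato was above for 19 of them (25.2% of all genes) and GFP for 6 (23.4% of all genes). With the replicate number as a block, 21 were lower and 4 higher, where 20.9% of all genes were lower, 20.1% higher and 41.0% either. With the block and offsets for GC content and transcript length, 18 were lower and 7 higher, where 14.0% of all genes were lower, 25.7% higher and 39.7% either. Scaling by library size alone put the median of all genes at -0.16, and 18 of the 36 were then lower and 2 higher, where all genes gave 3851 lower and 1128 higher in place of 2456 and 2049.

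**Figure D2:**
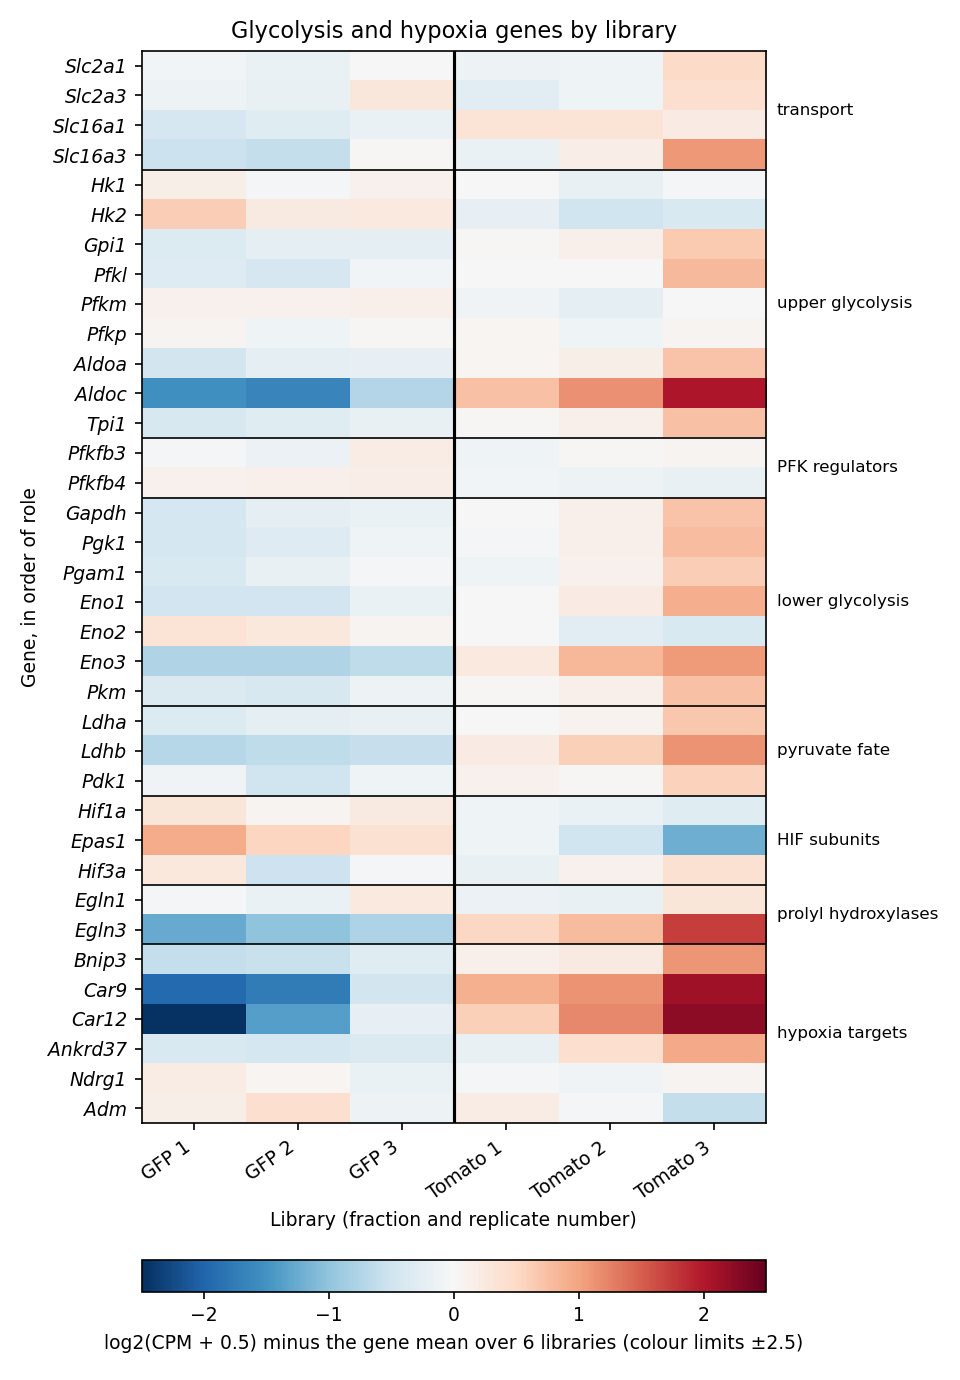
Deviation of log2(CPM + 0.5) from the mean of each gene over 6 libraries (colour, red for above the mean), with the 36 genes in rows by role and the libraries in columns. Tomato replicate 3 is the highest Tomato library for 28 of 36 genes, while Hif1a, Epas1, Eno2 and Hk2 run the other way between the fractions.

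Replicate 3 stood highest within each fraction for most of these genes. Tomato replicate 3 was the highest of the Tomato libraries for 28 of the 36 genes, where it was the highest for 40.4% of all genes tested. GFP replicate 3 was the highest of the GFP libraries for 26 of the 36, against 30.1% of all genes. Summed over the 36 genes, GFP replicates 1, 2 and 3 had 6203, 6218 and 6778 CPM, and Tomato replicates had 7297, 7634 and 10829 CPM. Tomato replicate 3 also had the highest macrophage, epithelial and neutrophil sums and the lowest fibroblast and endothelial sums of all libraries. Its part in each result was measured by leaving it out. Without it 12 of the 36 genes were lower (12.3% of all genes) and 2 higher (9.22% of all genes; 21.5% either), with a median log2 fold change of -0.30.

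Neither glucose transporter was called, and of the lactate transporters Slc16a1 was lower in GFP. Slc2a1, the widely expressed glucose transporter GLUT1, had 163, 153 and 173 CPM in GFP and 159, 160 and 241 CPM in Tomato (log2 fold change -0.19 ± 0.16, SE; adjusted p = 0.388 by edgeR). Its Tomato values were like those of GFP except in replicate 3, and without that library its log2 fold change was 0.02. Slc2a3, the high-affinity transporter GLUT3, had 39.8 ± 7.34 CPM in GFP and 41 ± 11 CPM in Tomato (-0.04 ± 0.20, adjusted p = 0.889; 0.19 without Tomato replicate 3). Per kilobase of annotated exon (RPKM), Slc2a1 stood at 46.5 in GFP and Slc2a3 at 5.49. Slc16a1 encodes the monocarboxylate transporter MCT1 (ENSMUSG00000032902, chromosome 3, 104638668 to 104658462, in GRCm38 as for all genes here). It had 147, 159 and 174 CPM in GFP and 249, 250 and 227 CPM in Tomato. The fractions did not overlap, and it was lower in GFP by a log2 fold change of -0.60 ± 0.10 (adjusted p = 0.00341), a call that held in each of 15 alternative fits. Slc16a3, which encodes MCT4, the lactate exporter of glycolytic cells, had 104, 99.1 and 154 CPM in GFP and 134, 169 and 318 CPM in Tomato. Its fractions overlapped, and it was not called (-0.80 ± 0.33, adjusted p = 0.112). Replicate 3 was the highest library in both fractions, and with the replicate number as a block Slc16a3 was lower in GFP (-0.73, adjusted p = 0.00246). It was -0.36 without Tomato replicate 3 (adjusted p = 0.27).

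The genes Gpi1, Pfkl, Aldoa, Tpi1, Gapdh, Pgk1, Pgam1, Eno1, Pkm and Ldha serve successive steps from glucose phosphate to lactate. They are described together after their values were seen, with log2 fold changes from -0.79 to -0.44, and from -0.85 to -0.12 with the GC and length offsets. Of these 10 genes, 6 were lower in GFP (15.7% of all genes), and for 9 the Tomato libraries lay above all GFP libraries (25.2% of all genes). The choice of the 10 fixes these counts, so nothing is read from them. Eno1, the main enolase gene, had 442, 444 and 549 CPM in GFP and 618, 706 and 1164 CPM in Tomato (-0.79 ± 0.23, adjusted p = 0.0371). Pkm, the pyruvate kinase gene, had 672, 659 and 797 CPM in GFP and 885, 943 and 1442 CPM in Tomato (-0.62 ± 0.19, adjusted p = 0.0411). All Tomato values exceeded all GFP values for both genes, and Tomato replicate 3 was far above the other Tomato libraries. Gapdh, the dehydrogenase at the start of the lower pathway, had 428 ± 41.7 against 651 ± 181 CPM (-0.61 ± 0.19, adjusted p = 0.0407). The others called were the glucose phosphate isomerase gene Gpi1 (-0.57, adjusted p = 0.0281), the aldolase gene Aldoa (-0.62, adjusted p = 0.0315) and the triose phosphate isomerase gene Tpi1 (-0.63, adjusted p = 0.0333).

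None of these 6 calls held in every fit. Each was lost without GFP replicate 1, GFP replicate 2, GFP replicate 3 or Tomato replicate 2, with adjusted p of up to 0.0973 for Gpi1, 0.113 for Aldoa, 0.11 for Tpi1, 0.136 for Gapdh, 0.109 for Eno1 and 0.128 for Pkm. Without Tomato replicate 3 their log2 fold changes lay between -0.36 (Gpi1 and Gapdh) and -0.48 (Eno1), and 5 of the 6 calls held, with Pkm at an adjusted p of 0.0504. With the GC and length offsets Aldoa (adjusted p = 0.0577), Tpi1 (-0.41, 0.094) and Gapdh (0.0703) did not pass, and without a filter on low counts Eno1 did not (0.122). With the replicate number as a block all 6 were lower in GFP, with adjusted p from 0.00222 (Eno1) to 0.00629 (Gpi1).

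The remaining 4 of the 10 missed the threshold in the fit without the block and passed with it. Ldha, which encodes the lactate dehydrogenase subunit that favours lactate formation, had 924, 994 and 1037 CPM in GFP and 1178, 1239 and 1870 CPM in Tomato (-0.54 ± 0.18, adjusted p = 0.0535; 0.0133 with the block). Its fractions did not overlap. Pgk1, the phosphoglycerate kinase gene, was at -0.62 (adjusted p = 0.0566, and 0.00329 with the block). Pfkl, the liver-type phosphofructokinase gene, was at -0.60 (0.0866 and 0.00597), and Pgam1, the phosphoglycerate mutase gene, was at -0.44 (0.104 and 0.00923). With the block and the GC and length offsets together Pfkl (-0.64, adjusted p = 0.00788) and Pgk1 (-0.28, 0.0446) passed, and Ldha (-0.33, 0.0583) and Pgam1 (-0.10, 0.345) did not. With the offsets alone Ldha was at -0.36, Pgk1 at -0.31 and Pgam1 at -0.12, none of them past the threshold. Pdk1, the kinase gene that keeps pyruvate out of mitochondria, behaved alike, with 43.1 ± 6.51 against 60.2 ± 13.1 CPM (-0.48, adjusted p = 0.0627, and 0.00779 with the block). Many of these genes have processed pseudogenes that can take or lose reads, so their counts are uncertain to that extent. The exons of Pkm overlap Gm49759 over 15.3% of their length and those of Gpi1 overlap Gm26762 over 11.5%.

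**Figure D3:**
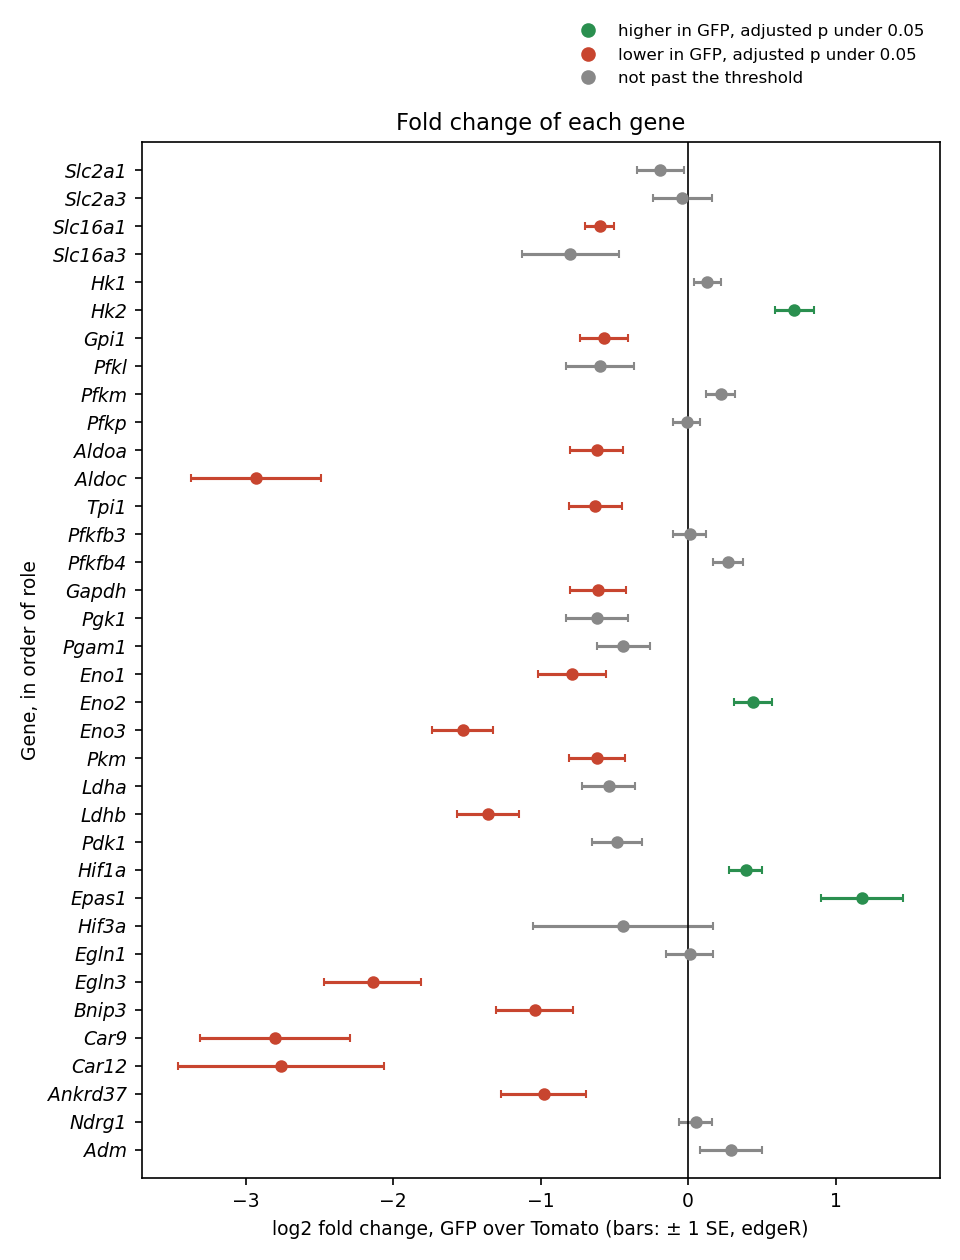
Log2 fold change, GFP over Tomato, of each of the 36 genes by role, with bars of ± 1 SE from edgeR over 3 libraries a fraction, green for higher in GFP, red for lower and grey for not called. Gpi1, Pfkl, Aldoa, Tpi1, Gapdh, Pgk1, Pgam1, Eno1, Pkm and Ldha lie between -0.79 and -0.44, Aldoc, Car9, Car12 and Egln3 lie lowest, and Epas1 lies highest at 1.18.

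Hk2 was higher in GFP, unlike the 10 genes above, which were grouped after their values were seen. Hk2, the inducible hexokinase that starts glycolysis (ENSMUSG00000000628, chromosome 6, 82725025 to 82774454), had 158, 121 and 123 CPM in GFP and 90.5, 73.2 and 79.8 CPM in Tomato. Every GFP library exceeded every Tomato library, and Hk2 was higher in GFP by 0.72 ± 0.13 (adjusted p = 0.00526), a call that held in each of 15 alternative fits. Hk1, the hexokinase of most tissues, had 101 ± 6.57 and 91.9 ± 6.93 CPM (0.13 ± 0.09, adjusted p = 0.315), with overlapping fractions. Hk2 made up 68.1, 65.1 and 63.0% of the Hk1 and Hk2 RNA per kilobase in GFP and 57.1, 55.5 and 54.7% in Tomato.

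Phosphofructokinase, the main control point, has 3 isoform genes, and none of them was called. Per kilobase, Pfkl held 48.1 ± 2.58% of their RNA in GFP and 58.7 ± 6.70% in Tomato. Pfkm, the muscle type, held 19.7 ± 1.33% in GFP and 14.1 ± 2.10% in Tomato. Pfkp, the platelet type, held 32.2 ± 1.62% and 27.2 ± 4.60%. This order rests on the annotated exon length, 6675 bases for Pfkl and 13401 for Pfkp. In CPM, which do not allow for length, Pfkp was above Pfkl in every GFP library (154, 136 and 150 against 106, 98.0 and 125). In level, Pfkp was nearly equal between them (147 ± 9.18 and 148 ± 10.3 CPM, -0.01, adjusted p = 0.948), and Pfkm was at 22.3 ± 0.187 and 19.1 ± 1.63 CPM (0.22, adjusted p = 0.123). The exons of Pfkm overlap Gm26513 and Senp1 over 10.7% of their length, and with the GC and length offsets Pfkm was higher in GFP (0.37, adjusted p = 0.0227). Pfkfb3 and Pfkfb4 make the sugar phosphate that activates phosphofructokinase. Pfkfb3 had 33.5 ± 3.95 and 33.2 ± 2 CPM (0.01, adjusted p = 0.952). Pfkfb4 had 17.0 ± 0.362 and 14.1 ± 0.537 CPM (0.27, adjusted p = 0.0696) with no overlap, and it was higher in GFP with those offsets (0.29, adjusted p = 0.04).

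The minor isoform genes Aldoc, Eno3 and Ldhb were lower in GFP, while the minor enolase gene Eno2 was higher. Aldoc, the aldolase of brain (ENSMUSG00000017390, chromosome 11, 78322968 to 78327781), had 1.51, 1.34 and 2.99 CPM in GFP and 9.19, 12.4 and 23.0 CPM in Tomato. The highest GFP library lay below the lowest Tomato library, and Aldoc was lower in GFP by 7.61-fold (log2 fold change -2.93 ± 0.44, adjusted p = 0.00427). It remained a minor form in both fractions, with 0.349 ± 0.14% of the Aldoa and Aldoc RNA per kilobase in GFP and 1.66 ± 0.374% in Tomato. Eno3, the muscle enolase (ENSMUSG00000060600, chromosome 11, 70657202 to 70662513), had 5.68, 5.64 and 6.17 CPM in GFP and 11.7, 17.9 and 21.2 CPM in Tomato. The GFP libraries were tightly grouped under all Tomato libraries (-1.53 ± 0.21, adjusted p = 0.00153). Eno2, the enolase of neurons, went the other way, with 39.2, 37.1 and 32.5 CPM in GFP and 31.4, 25.3 and 23.5 CPM in Tomato (0.44 ± 0.13, adjusted p = 0.0349). That call was lost without GFP replicate 1, GFP replicate 2, Tomato replicate 2 or Tomato replicate 3 (adjusted p of up to 0.12) and when scaled by library size alone (0.0919). Ldhb, the lactate dehydrogenase subunit that favours use of lactate (ENSMUSG00000030246, chromosome 6, 142490249 to 142507957), had 17.5, 18.6 and 19.2 CPM in GFP and 33.7, 44.3 and 64.1 CPM in Tomato. It was lower in GFP by 2.57-fold (-1.36 ± 0.21, adjusted p = 0.00382), without overlap. The calls of Aldoc, Eno3 and Ldhb held in each of 15 alternative fits.

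A ratio of isoforms within a library does not depend on the scaling between libraries. Over 14 such pairs, log2 ratios did not overlap between the fractions for 9, and each of these 9 had p = 0.1 by a two-sided exact permutation test, the smallest that 3 against 3 libraries allow (Benjamini-Hochberg adjusted p = 0.156). No pair could therefore be called, and the values are given as sizes. The share without overlap was not computed over other pairs of genes (for single genes it was 48.6% of all tested). Nothing is therefore read from the count of 9. The log2 ratio of Egln3 to Egln1 was -2.06 ± 0.18 in GFP and 0.01 ± 0.38 in Tomato, the difference being -2.07. That of Aldoc to Aldoa differed by -2.31, that of Ldhb to Ldha by -0.81 and that of Eno3 to Eno1 by -0.75 (-0.39 with the GC and length offsets). The ratio of Ldhb to Ldha was nearly fixed in GFP, at -5.72, -5.74 and -5.75, and ran from -5.13 to -4.80 in Tomato. In the other direction lay Eno2 to Eno1 (1.19), Epas1 to Hif1a (0.85), Pfkm to Pfkl (0.78), Hk2 to Hk1 (0.59) and Pfkp to Pfkl (0.54; 0.31 without Tomato replicate 3). The 5 pairs that overlapped were Slc2a3 to Slc2a1 (0.14, exact permutation p = 0.5), Pfkfb4 to Pfkfb3 (0.26, 0.2), Slc16a3 to Slc16a1 (-0.13, 0.9), Car12 to Car9 (-0.12, 1) and Hif3a to Hif1a (-1.11, 0.3).

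**Figure D4:**
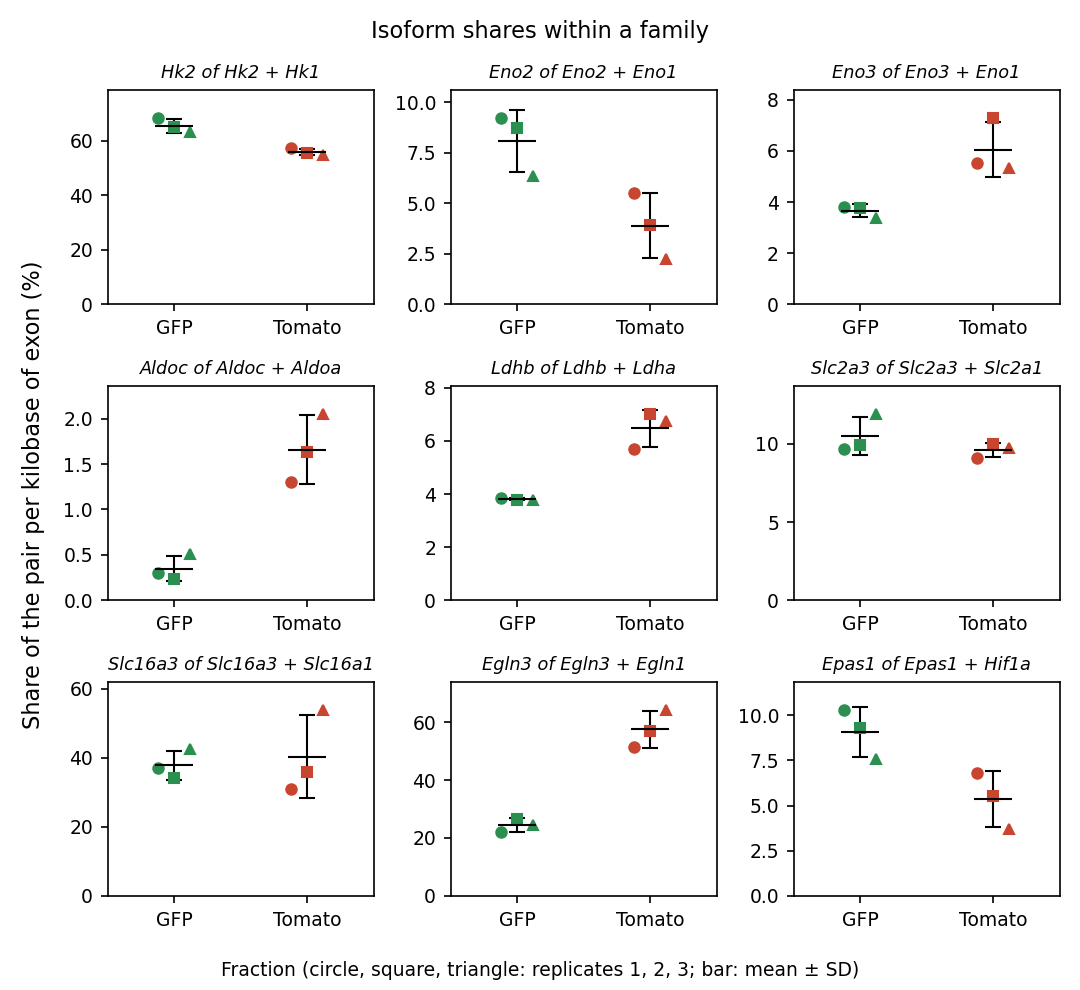
Share of the named isoform in the RNA of its pair, in percent per kilobase of annotated exon, for 9 pairs, by fraction, with points for libraries and bars for the mean ± SD of 3. The share of Egln3 is 24.4 ± 2.30% in GFP and 57.5 ± 6.45% in Tomato, and the shares of glucose and lactate transporters overlap.

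Of the 3 HIF subunit genes 2 were higher in GFP, where 13.1% of all genes tested were higher. Hif1a, the widely expressed alpha subunit (ENSMUSG00000021109, chromosome 12, 73901375 to 73947530), had 773, 658 and 738 CPM in GFP and 586, 560 and 508 CPM in Tomato. The fractions did not overlap, and Hif1a was higher in GFP by 0.39 ± 0.11 (adjusted p = 0.0305). The call was lost without GFP replicate 1, GFP replicate 3, Tomato replicate 2 or Tomato replicate 3 (adjusted p of up to 0.107) and when scaled by library size alone (0.23, adjusted p = 0.131). Epas1 encodes HIF2 alpha, which is abundant in endothelium (ENSMUSG00000024140, chromosome 17, 86753700 to 86833410). It had 84.2, 64.1 and 57.4 CPM in GFP and 40.6, 31.2 and 18.6 CPM in Tomato. All GFP libraries were above all Tomato libraries (1.18 ± 0.28, adjusted p = 0.0217), and the call held without any single library (adjusted p of up to 0.049) but not without a filter on low counts (1.17, adjusted p = 0.119). The lymphatic endothelial sum followed the same order over the 6 libraries, 493, 353 and 309 CPM in GFP and 77.6, 48.4 and 22.2 CPM in Tomato, and its part in the Epas1 difference was not tested. Hif3a, a subunit that can restrain the others, was near the limit of detection, with 17, 2 and 10 reads in GFP and 9, 14 and 20 reads in Tomato (-0.44 ± 0.61, adjusted p = 0.61). Per kilobase, Hif1a reached 123 ± 9.99 RPKM in GFP, Epas1 12.3 ± 2.49 and Hif3a 0.0397 ± 0.0297.

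The promoters of 4 hypoxia targets that were lower in GFP and of Hk2, which was higher, are shown because HIF binds DNA at the core letters ACGTG or GCGTG. Each line gives the 250 bases before the RefSeq start, 5′ to 3′, from GRCm38.p6, with these letters on either strand in capitals. Car12 holds none of them in this window.
Egln3 (chr12:54203875-54204124, minus strand): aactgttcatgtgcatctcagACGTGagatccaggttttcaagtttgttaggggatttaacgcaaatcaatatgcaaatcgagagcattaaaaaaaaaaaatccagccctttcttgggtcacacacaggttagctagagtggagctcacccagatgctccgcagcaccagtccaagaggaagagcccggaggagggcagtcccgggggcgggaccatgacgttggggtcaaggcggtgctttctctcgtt
Car9 (chr4:43506776-43507025, plus strand): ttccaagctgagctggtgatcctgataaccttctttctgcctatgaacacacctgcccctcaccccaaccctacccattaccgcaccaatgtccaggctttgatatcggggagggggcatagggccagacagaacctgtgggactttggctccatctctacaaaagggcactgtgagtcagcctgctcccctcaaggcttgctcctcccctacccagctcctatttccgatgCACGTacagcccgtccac
Car12 (chr9:66713436-66713685, plus strand): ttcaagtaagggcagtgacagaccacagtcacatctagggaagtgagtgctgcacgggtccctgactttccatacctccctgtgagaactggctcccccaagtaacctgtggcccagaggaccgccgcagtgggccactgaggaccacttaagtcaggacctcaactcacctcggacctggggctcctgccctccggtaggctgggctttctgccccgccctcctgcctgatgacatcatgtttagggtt
Bnip3 (chr7:138909507-138909756, minus strand): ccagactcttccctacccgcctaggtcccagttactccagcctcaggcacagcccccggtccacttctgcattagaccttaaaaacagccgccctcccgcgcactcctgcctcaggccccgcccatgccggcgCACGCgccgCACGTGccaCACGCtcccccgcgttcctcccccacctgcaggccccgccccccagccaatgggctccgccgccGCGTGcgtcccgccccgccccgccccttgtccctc
Hk2 (chr6:82774455-82774704, minus strand): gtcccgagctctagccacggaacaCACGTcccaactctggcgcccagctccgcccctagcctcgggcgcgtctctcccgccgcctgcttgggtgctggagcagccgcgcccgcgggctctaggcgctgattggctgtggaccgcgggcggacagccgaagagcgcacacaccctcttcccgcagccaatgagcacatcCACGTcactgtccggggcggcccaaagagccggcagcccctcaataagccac

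In all, 33 of the 36 genes had a promoter in the RefSeq table, with 46 starts. ACGTG or GCGTG, on either strand, was in 37 of these 46 windows (80.4%), beside 53.5% of the windows of all genes tested and 38.6% of all 32851 windows. Windows at neighbouring starts of Eno1, Aldoa and Pfkm overlap, so that the same match counts more than once. The members include genes listed as hypoxia targets, and the shares are not matched for GC content, so nothing is read from the difference. The palindrome CACGTG, as in Bnip3, counts on both strands. By call, 12 of 15 genes lower in GFP had a match in at least 1 window, as did 2 of 3 that were higher and 15 of 15 that were not called. The windows of Egln3 and Car9 are 50.8% and 56.4% G and C, and those of Bnip3 and Hk2 are 72.4% and 69.6%.

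Of the prolyl hydroxylases, which act on those subunits and are themselves HIF targets, the inducible one differed. Egln3, or PHD3 (ENSMUSG00000035105, chromosome 12, 54178981 to 54203860), had 17.2, 20.6 and 24.2 CPM in GFP and 60.0, 72.9 and 141 CPM in Tomato. The lowest Tomato library was above the highest GFP library, and Egln3 was lower in GFP by 4.41-fold (-2.14 ± 0.33, adjusted p = 0.00449), in each of 15 alternative fits as well. Without Tomato replicate 3 the log2 fold change was -1.69 (adjusted p = 0.000152). Egln1, or PHD2, the main oxygen sensor, had 86.2 ± 12.9 and 85.8 ± 17.3 CPM (0.01 ± 0.16, adjusted p = 0.975).

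Among the other hypoxia targets 4 of 6 were lower in GFP, where 15.7% of all genes tested were lower. Car9 encodes a carbonic anhydrase of the cell surface (ENSMUSG00000028463, chromosome 4, 43506966 to 43513729) and had 2.99, 3.49 and 9.27 CPM in GFP and 24.4, 28.5 and 57.2 CPM in Tomato. It was 6.98-fold lower in GFP (-2.80 ± 0.51, adjusted p = 0.00899), without overlap, and lost the call only without a filter on low counts (adjusted p = 0.0647). Car12, a related surface enzyme, had 0.808, 2.27 and 5.78 CPM in GFP and 10.4, 16.2 and 33.6 CPM in Tomato (-2.76 ± 0.70, adjusted p = 0.0261). Replicate 3 was the highest library of both fractions for both enzymes. The Car12 call was lost without GFP replicate 2, Tomato replicate 1 or Tomato replicate 3 (adjusted p of up to 0.147) and without a filter (0.141), while with the block its adjusted p was 1.86e-05. Bnip3, which acts in mitophagy (ENSMUSG00000078566, chromosome 7, 138890836 to 138909519), had 45.4, 46.6 and 55.8 CPM in GFP and 74.9, 80.6 and 148 CPM in Tomato. It was lower without overlap (-1.04 ± 0.26, adjusted p = 0.0266), and this did not pass without GFP replicate 1 or GFP replicate 2 (up to 0.0718), without a filter (0.123) or with the GC and length offsets (-0.70, adjusted p = 0.0604). Without Tomato replicate 3 Bnip3 was at -0.67 (adjusted p = 0.00324). Its exons overlap those of Gm45507 on the other strand over 22.3% of their length, as those of Car9 overlap Gm12454 over 9.3%, and the counting cannot tell the strands apart.

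The remaining hypoxia targets were lower by less or did not pass. Ankrd37, an ankyrin repeat gene, had 2.52 ± 0.0928 against 4.98 ± 2.08 CPM (-0.98 ± 0.29, adjusted p = 0.038). It lost the call in all fits without a single library but that without Tomato replicate 1 (adjusted p of up to 0.108), on counts of a single strand (0.0572) and with the GC and length offsets (0.13, and 0.0945 with the block as well), and it was at -0.63 without Tomato replicate 3. Its exons overlap Lrp2bp and Ufsp2 on the other strand over 26.4% of their length, so its reads are uncertain. Ndrg1, a stress-response gene, had 278 ± 34.5 and 269 ± 14.4 CPM (0.05 ± 0.11, adjusted p = 0.76). Adm, which encodes the vasodilator peptide adrenomedullin, had 197, 240 and 164 CPM in GFP and 201, 173 and 117 CPM in Tomato (0.29 ± 0.21, adjusted p = 0.332), and it was higher in GFP with the GC and length offsets and the block together (0.67, adjusted p = 0.00225). Tomato replicate 3, the highest Tomato library for Car9, Car12, Bnip3 and Ankrd37, was the lowest for Adm, at 117 CPM.

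**Figure D5:**
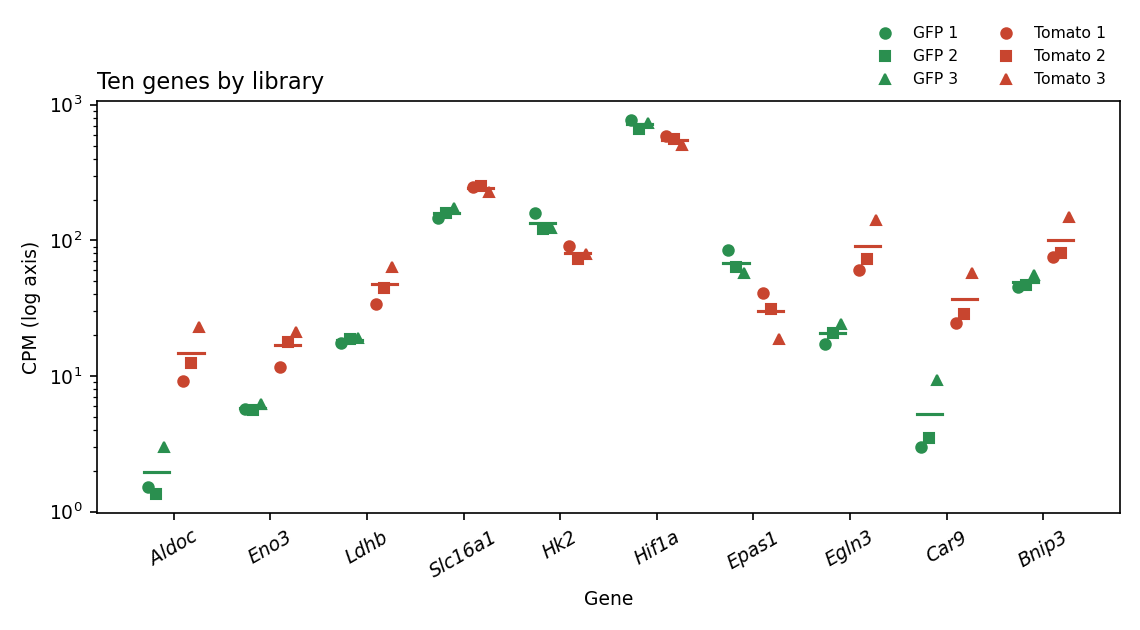
CPM (log axis) of 10 of the genes in each library, GFP in green and Tomato in red, with circles, squares and triangles for replicates 1, 2 and 3 and a line for the mean of 3. The 10 were picked from the 19 genes called, so nothing is read from the lack of overlap in all of them (48.6% of all genes tested). Hk2, Hif1a and Epas1 are the ones higher in GFP.

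Other genes of the same pathways moved in both directions. Of 93 tested among 101 in 4 further lists, 13 were higher (14.0%, against 13.1% of all genes) and 16 lower (17.2%, against 15.7%), with a median log2 fold change of -0.09. Without Tomato replicate 3 these were 13 and 9, and with scaling by library size alone 7 and 28. Among 29 other genes of glucose metabolism 6 were lower and 2 higher. Hk3, the hexokinase of white blood cells, was lower (0.882 ± 0.261 CPM in GFP, -2.54, adjusted p = 0.00259), as was the glycerol phosphate dehydrogenase gene Gpd1 (-2.39, adjusted p = 0.00484). Slc2a10, a glucose transporter gene (0.63, adjusted p = 0.00854), and Bpgm, which makes bisphosphoglycerate (0.49, adjusted p = 0.0105, 0.0529 without Tomato replicate 2 and 0.054 when scaled by library size alone), were higher. Of 13 genes for the entry of pyruvate into mitochondria 1 was higher and 1 lower, both phosphatases that activate pyruvate dehydrogenase: Pdp2 (0.62, adjusted p = 0.0163) and Pdp1 (-0.37, adjusted p = 0.0154). With the replicate block 3 of the 13 were lower, where 20.9% of all genes were lower. Both calls were lost without GFP replicate 3 or Tomato replicate 2, with adjusted p of up to 0.0598 and 0.0674, and that of Pdp2 when scaled by library size alone (0.0515).

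Of 13 genes of the HIF machinery 2 were higher and 2 lower (15.4% each, against 13.1% and 15.7% of all genes), and 4 were higher with the replicate block (20.1% of all genes). The coactivator genes Crebbp (0.70, adjusted p = 0.0103) and Ep300 (0.51, adjusted p = 0.0188) were higher. Vhl (-0.30, adjusted p = 0.0491) and Rbx1 (-0.35, adjusted p = 0.0337), which take part in HIF destruction, were lower. Ep300 lost its call without GFP replicate 1 or Tomato replicate 2 (up to 0.0701) and when scaled by library size alone (0.0504). Vhl (up to 0.145) and Rbx1 (up to 0.113) lost theirs in all fits without a single library but that without Tomato replicate 1, and with the GC and length offsets, where Vhl was at -0.08 (adjusted p = 0.488) and Rbx1 at -0.23 (0.113). Vhl lost its call on counts of a single strand as well (0.066). Of 38 further hypoxia targets 8 were higher (21.1%) and 7 lower (18.4%), and with the replicate block 11 were lower (20.9% of all genes). The collagen crosslinking gene Loxl2 (0.62, adjusted p = 0.00524) was among the higher ones. The lipid droplet gene Plin2 (-0.63, adjusted p = 0.0129) and the nitric oxide synthase gene Nos2 (-1.72, adjusted p = 0.0293) were lower. Plin2 lost its call without GFP replicate 1 or Tomato replicate 2 (up to 0.0538), and Nos2 without GFP replicate 1, GFP replicate 2, Tomato replicate 1 or Tomato replicate 3 (up to 0.104) and without a filter on low counts (0.149).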

How the data were processed

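RNA from 150 ng of total RNA per library was made into libraries with an Illumina TruSeq kit, per the labels' protocols. The deposited values are raw read counts per gene, unstranded and for each strand, per the file headers. The submitters' processing notes name Trim Galore 0.4.3, STAR 2.5.2b and build GRCm38, with no roles, and for the annotation release they are silent: it is not given in the sources used here. Unstranded counts were analysed, since the strands' totals were nearly equal (ratio 1.002 to 1.006), and overlapping genes on opposite strands cannot be told apart. Of 49671 genes, 49412 matched GENCODE M21, the source of names, coordinates (1-based) and exon lengths, and the others held 0.0076% of counts. RPKM is CPM per kilobase of all annotated exons, which understates genes with long, little used exons.

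GFP and Tomato libraries were compared with edgeR 4.0.16 in R 4.3.3 (TMM, filterByExpr, robust quasi-likelihood F test, no block) over 15608 genes, with code tested on simulated data. Isoform ratios used counts + 0.5. The alternatives were RLE scaling, library size alone, no filter, 1 CPM in 3 libraries, DESeq2 1.42.0, a block on the replicate number, counts of a single strand, offsets per library from splines of length and GC content (4 degrees of freedom), these offsets with the block, and leaving out each library. Such offsets can also remove real differences tied to length or GC content. Deviations from the fraction's mean were correlated between libraries of the same number (0.403, 0.108 and 0.347). Between libraries of different numbers the correlations ran from -0.392 to 0.028, so that of replicate 2 stood out little. The numbers may thus pair the libraries, which comes from the data and not the labels. Calls were therefore taken from the fit without the block, and the block is given as an alternative. No libraries were duplicates (chi-square per degree of freedom 28 to 118 within fractions). The members and lists were chosen with earlier results of these data known. All 36 members are named, and in each further pathway list the 2 higher and the 2 lower genes of smallest adjusted p, of which 1 is not reported here.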

Additional observations from a re-analysis of the deposited data

How the results depend on the processing

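Of the 19 calls among the 36 genes, 6 (Slc16a1, Hk2, Aldoc, Eno3, Ldhb and Egln3) held in all 15 alternative fits, and 8 held in all 6 that left out a library, where fewer samples were fitted. Those 6 fits gave 833 to 2392 genes higher and 1380 to 2793 lower over all genes, 2 to 4 of the 36 higher and 6 to 19 lower, and 6 to 13 of the other pathway genes higher and 6 to 21 lower. With library size alone 1128 genes were higher and 3851 lower, with 2 of the 36 higher, and 7 and 28 of the other pathway genes. The replicate block gave 3137 genes higher. Among the 36 genes and the other pathway genes named here, it changed no call other than the 6 that it added. The GC and length offsets put the median of all genes at 0.11, and 1618 genes were lower. With the replicate block as well, 4007 genes, 7 of the 36 and 24 other pathway genes were higher. Signs turned for 8 genes and 3 isoform ratios, none of which was called. Library size alone gave Hk1 -0.04, Pfkfb3 -0.16, Egln1 -0.16 and Ndrg1 -0.12, and no filter gave Pfkfb3 -0.00 and Egln1 -0.01. The GC and length offsets gave Hk1 -0.01 and Pfkfb3 -0.04, without and with the replicate block, and counts of a single strand gave Pfkfb3 -0.04. Leaving out 1 library gave Slc2a1 -0.30 to 0.02, Slc2a3 -0.20 to 0.19, Pfkp -0.07 to 0.04, Pfkfb3 -0.08 to 0.09, Hif3a -1.07 to 0.01, Egln1 -0.12 to 0.18 and Ndrg1 -0.03 to 0.14. It also gave Slc16a3 to Slc16a1 -0.41 to 0.28 and Car12 to Car9 -0.34 to 0.29, and Slc2a3 to Slc2a1 was -0.00 with the offsets. The cause was not tested. Depth limits Hif3a, with 2 to 20 reads a library.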
